A study of Mus musculus with 3 samples.

Results

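The cytoplasmic ribosomal protein genes were taken from the protein-coding rows by name: Rpl or Rps followed by a digit, plus Rplp0, Rplp1, Rplp2 and Rpsa, without the Rps6k kinases and Rps19bp1. The rule found 86 genes among 24901 rows, of which 20668 are protein-coding. It gave 53 genes of the large subunit and 33 of the small subunit. A gene counted as measured if at least 1 library held 30 counts and a scaled count (CPM, the count set against library size) of 1, and 82 of the 86 were measured, 49 of the large and all 33 of the small subunit. The others were the copies Rpl3l (10, 16 and 6 counts in control, 6 h and 24 h), Rpl32l (9, 13 and 4), Rpl39l (24, 22 and 17) and Rpl10l (0 in each). A count of 0 allows up to 3 counts, or 0.0617, 0.0466 and 0.103 CPM in those libraries.

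CH12 is a mouse B lymphoma line, and its mRNA was sequenced in a control library and in libraries from cells given 5 ng/ml of the cytokine TGFb for 6 h or 24 h. There was 1 library per group, so no difference has a replicate check, no test was possible and intervals cover counting error only. No time is given for the control, so treatment and time in culture cannot be told apart. The libraries held 51386081, 64229801 and 27487221 counts. All 9 B cell markers were measured, with summed levels of 4014, 3760 and 4620 CPM. The highest single marker in each library held 2489, 2373 and 3003 CPM of these sums. Against control, 5 of the 9 had a ratio below 1 at 6 h and 3 at 24 h, where 50.7% and 51% of all measured genes did. The lowest log2 ratio among the 9 markers was -1.91 at 6 h and -3.16 at 24 h. T cell markers (1 of 5 measured) summed to 3.21, 1.69 and 1.62 CPM and fibroblast markers (1 of 5 measured) to 0.267, 0.435 and 1.14 CPM. Summed myeloid markers were 11.4, 19.9 and 42.0 CPM (3 of 7 measured, with the neutrophil genes S100a8 and S100a9 at 0 counts in each library) and endothelial ones 3.46, 7.14 and 11.96 CPM (2 of 3 measured, with Kdr at 0 counts in control and 24 h). These sums moved with treatment, and their part in the results was not tested.

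Ribosomal proteins coat and stabilise the ribosomal RNAs of the small subunit, which reads the mRNA, and of the large subunit, which joins amino acids. Each is needed in equal amounts per ribosome, apart from the stalk proteins, and their mRNAs rank among the most abundant of growing cells. These mRNAs start with a run of pyrimidines, the 5′ terminal oligopyrimidine (TOP) motif, through which the kinase mTORC1 and the RNA-binding protein Larp1 control their translation, and the transcription factor Myc is known to raise their synthesis in B cells.

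The set held 9.90% of all counts in control (Wilson 95% interval 9.89 to 9.91%), 9.06% at 6 h (9.05 to 9.07%) and 8.97% at 24 h (8.96 to 8.98%). The large subunit took 5.86%, 5.37% and 5.29% and the small subunit 4.04%, 3.69% and 3.68%. In counts, both treated libraries thus had a lower share than control for either subunit. In TPM, a measure of transcript number that sets each count against transcript length and so weighs these short mRNAs more, the share was 27.4%, 26.3% and 27.0%. The large subunit took 15.9%, 15.2% and 15.4% of TPM and the small subunit 11.5%, 11.2% and 11.6%, so on that scale the small subunit's share at 24 h was not below control. In bulk RNA, fewer cells that express a gene and less of its RNA per cell cannot be told apart.

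Levels of different members were compared in TPM. The median member had 3254 TPM in control, 3204 at 6 h and 3254 at 24 h, and the middle 50% of members lay between 2090 and 4521 TPM in control. At least 1000 TPM was reached by 75 of the 82 members in each library, and 68, 67 and 68 members stood among the 100 most abundant genes. The most abundant was Rplp1, a protein of the stalk that recruits elongation factors, with 9477, 8292 and 8444 TPM. Rpl41, the smallest ribosomal protein, had 8328, 7571 and 7793 TPM. Rps2, at the mRNA entry channel, had 6675, 6020 and 5791 TPM, and Rpl8, near the peptidyl transferase centre, had 6058, 5488 and 5231 TPM. Rps12 (7220 TPM) and Rps26 (5617 TPM) completed the highest 6 in control. At the low end were Rps27 (81.3 TPM in control), the copy Rpl7l1 (187 TPM) and Rps15a (229 TPM). The deposited transcript length of Rps15a was 5134 bases against a median of 693.5 bases over the measured members, so its level per length depends on that entry.

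**Figure D1:**
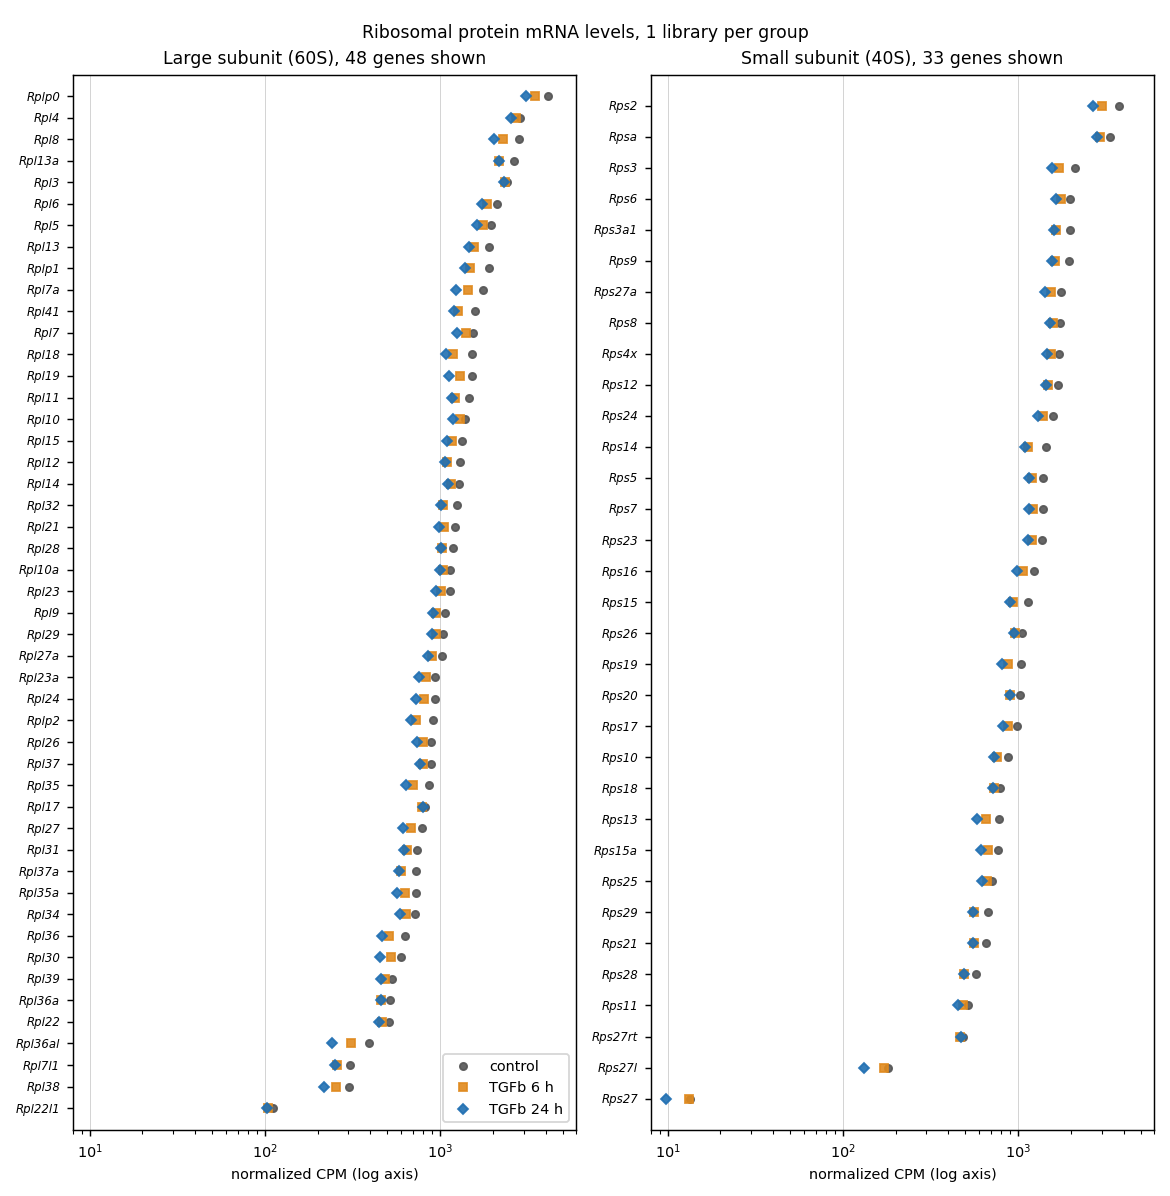
Normalized CPM (log axis) of measured ribosomal protein genes in the control, 6 h and 24 h libraries, with 48 large subunit genes on the left and 33 small subunit genes on the right (1 gene is left out), sorted by control level. Each point is 1 library. The control point lies to the right of both treated points for all genes shown, by small amounts beside the spread between genes.

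At 6 h, every measured ribosomal protein mRNA was slightly lower than in control once libraries were scaled by TMM, a scaling that takes most genes as unchanged. The ratio was below 1 for 82 of 82 members, against 50.7% of the 10754 measured genes. The median log2 ratio was -0.20, where the median of all measured genes was 0.00. None was at least 1.5-fold lower, against 2.14% of all measured genes, and none was at least 1.5-fold higher, against 6.77%. Nor did any member pass 2-fold, against 0.363% of all measured genes lower and 2.4% higher. The counting interval lay below 1 for 81 members. Members differed little from each other, with a middle 50% of log2 ratios 0.12 wide against 0.42 for all measured genes and a full range from -0.37 to -0.02. Some related lists were nearly as narrow at 6 h. The width was 0.15 for nuclear genes of the respiratory chain, mitochondrial ribosomal proteins and TOP mRNAs of other proteins. It was 0.18 for ribosome biogenesis factors and 0.19 for translation factors. With the deposited TPM the members' median was -0.03 and 55 members were below 1, so the size of their difference from control rests on the scaling.

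At 24 h the same 82 of 82 members were below 1, against 51% of all measured genes, with a median log2 ratio of -0.28 beside -0.01 for all. Exactly 1 member, the copy Rpl36al, was at least 1.5-fold lower, against 11.8% of all measured genes. None was 1.5-fold higher, against 16.8%, and none passed 2-fold, against 2.02% of genes lower and 7.41% higher. The middle 50% of members was 0.13 wide, against 0.73 for all measured genes. With TPM the median was 0.0005 and 41 members were below 1. Both comparisons use the same control library, so a high or low value there enters both.

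Between 6 h and 24 h the members barely differed. The ratio was below 1 for 78 of 82, against 52.8% of all measured genes, the median log2 ratio was -0.08, and none was 1.5-fold lower (2.11% of all) or higher (6.36% of all), or 2-fold lower (0.372% of all) or higher (1.87% of all). Counting intervals lay below 1 for 70 members. Control had the highest CPM of the 3 libraries for all 82 members, and 24 h the lowest for 78. The lowest log2 ratios were those of Rps27 (-0.45), Rps27l (-0.38), Rpl36al (-0.38) and Rpl7a (-0.22), and among the highest were those of Rps27rt (0.02), Rpl17 (0.01) and Rps20 (0.01). With TPM the median was 0.03 and 22 members were below 1.

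Large and small subunit genes had close medians. At 6 h the median log2 ratio was -0.20 for either subunit, and at 24 h it was -0.29 for the 49 large and -0.28 for the 33 small subunit genes. From 6 h to 24 h it was -0.09 and -0.07.

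The mRNAs of the stalk proteins were lower in both treated libraries. Rplp0, the stalk base, went from 4115 CPM (control) to 3476 (6 h) and 3104 (24 h), and was 1.33-fold lower at 24 h (interval 1.32 to 1.34). Rplp1 had 1911, 1489 and 1386 CPM and was 1.38-fold lower at 24 h (1.36 to 1.40). Rplp2, which pairs with Rplp1 and shares some reads with another gene, had 907, 733 and 681 CPM. In CPM all stalk genes had the order control, 6 h, 24 h from high to low, while in TPM Rplp1 and Rplp2 were highest in control and lowest at 6 h (Rplp2 had 4675, 4248 and 4319 TPM).

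Of the large subunit core, Rpl18 had the lowest log2 ratio at 6 h (-0.37). It had 1531, 1183 and 1087 CPM, 1.29-fold lower at 6 h (1.28 to 1.31) and 1.41-fold lower at 24 h (1.39 to 1.43). Rpl7a had 1750, 1439 and 1233 CPM, 1.42-fold lower at 24 h (1.40 to 1.44), and Rpl8 had 2836, 2297 and 2022 CPM, 1.40-fold lower (1.39 to 1.42). These were, after Rpl36al, the members with the lowest 24 h ratios, and each was already lower at 6 h. They were lower with TPM too: Rpl18 had 4447, 3847 and 3839 TPM, and Rpl7a had 3727, 3427 and 3181 TPM. Rpl41 was 1.31-fold lower at 24 h (1.30 to 1.33), with 1573, 1272 and 1196 CPM.

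Rpl3 and Rpl17 were the large subunit genes closest to control at 24 h. Rpl3, which reaches toward the peptidyl transferase centre, had 2419, 2351 and 2321 CPM, log2 -0.04 at 6 h and -0.06 at 24 h. Rpl17, which lies at the peptide exit tunnel, had 819, 790 and 799 CPM, log2 -0.05 and -0.04. With TPM both were above control in each treated library: Rpl3 had 3002, 3259 and 3473 TPM, and Rpl17 had 2001, 2161 and 2367 TPM. Rpl5 and Rpl11, which carry the 5S RNA and bind Mdm2 when assembly fails, had 1949, 1766 and 1633 CPM and 1463, 1220 and 1163 CPM. Rpl13a and Rpl32, often used as reference genes, had 2640, 2173 and 2164 CPM and 1252, 1032 and 1007 CPM, so both were lower than control in the treated libraries on this scale.

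In the small subunit, Rps2 had 3743, 3020 and 2686 CPM and was 1.39-fold lower at 24 h (1.38 to 1.41). Rps14, part of the platform, had 1447, 1143 and 1100 CPM with a log2 ratio of -0.34 at 6 h, and was 1.32-fold lower at 24 h (1.30 to 1.33). Both stood at the low end of the small subunit. Rps6, the substrate of S6 kinase, had 1974, 1746 and 1653 CPM, and Rpsa, which is also known as the laminin receptor, had 3342, 2940 and 2838 CPM. Rps12 (1699, 1482 and 1440 CPM), Rps26 (1057, 960 and 948 CPM) and Rps20 (1025, 894 and 900 CPM) also had their highest CPM in control. In TPM, Rps6 had 2384, 2355 and 2407 and Rpsa 2921, 2868 and 2985, so both were below control at 6 h and above it at 24 h on that scale.

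Paralog copies held the lowest and some of the highest ratios at 24 h. Rpl36al is a copy of Rpl36a with a gene of its own (GRCm38.p6, the assembly of mm10, chr12:69182734-69184067, minus strand), while Rpl36a is X-linked (chrX:134585654-134588062, plus strand). Over their 321 coding bases 39 differ, with 87.9% identity and no identical run over 24 bases, so any 50 coding bases in a row differ somewhere between them. Bases 115 to 174 of the coding sequences, in GENCODE M21 transcripts, are shown because they hold 12 of these differences, written in capitals.
Rpl36a: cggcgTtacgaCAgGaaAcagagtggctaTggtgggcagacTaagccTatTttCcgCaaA
Rpl36al: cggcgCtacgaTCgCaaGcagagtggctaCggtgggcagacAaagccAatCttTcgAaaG

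Rpl36al went from 392 CPM (control) to 312 (6 h) and 240 (24 h), 1.26-fold lower at 6 h (1.23 to 1.28) and 1.63-fold lower at 24 h (1.59 to 1.68). Rpl36a, some of whose reads are shared with another gene, had 516, 461 and 459 CPM and was 1.13-fold lower at 24 h (1.10 to 1.15). The copy was thus lower at each step, while the parent was lower at 6 h and nearly level from then on. In TPM the parent was not lower, with 2393, 2395 and 2609 TPM, and the copy was, with 1671, 1490 and 1254 TPM. Rpl36al made up 41.1%, 38.3% and 32.5% of the pair's summed TPM, a ratio within each library that scaling between libraries does not move. The log2 ratio of Rpl36al at 24 h was -0.71 with TMM, -0.73 with DESeq2 size factors, -0.55 with total counts and -0.41 with TPM, so it was below control on each scale, though under 1.5-fold on the last 2.

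Rps27 and Rps27rt cannot be told apart by coding reads. Their 255 coding bases are identical, and Rps27rt is annotated on chr9:114982366-114982739 and Rps27 on chr3:90212667-90213648. The authors' counts gave Rps27rt 485, 465 and 473 CPM and Rps27 13.5, 13.3 and 9.75 CPM, and this split is uncertain. Summed, they had 499, 479 and 482 CPM, with a ratio to control of 0.960 at 6 h (0.944 to 0.976) and 0.967 at 24 h (0.947 to 0.987). The low 24 h ratio of Rps27 alone (log2 -0.47) is therefore not that of the pair. Rps27l, a copy known as a p53 target, shares 76.1% of these bases and had 180, 171 and 131 CPM, 1.37-fold lower at 24 h (1.32 to 1.42). Its level was near that of control at 6 h and lower at 24 h, also in TPM (760, 810 and 680).

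Rpl22l1, the copy of Rpl22, had 112, 105 and 103 CPM, and Rpl22, which is known for its role in lymphocyte development, had 513, 465 and 450 CPM. Per length the copy was the more abundant, with 530, 557 and 598 TPM against 373, 377 and 393 TPM, and its share of the pair was 58.7%, 59.6% and 60.3%. That order rests on the deposited transcript lengths, 481 bases for Rpl22l1 and 2203 bases for Rpl22, since Rpl22 had the higher CPM. Rpl7l1, a relative of Rpl7, had 308, 259 and 251 CPM and Rpl7 1546, 1410 and 1253 CPM. Rpl3l, a muscle gene, and Rpl10l, a testis gene, were at or near 0 counts.

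**Figure D2:**
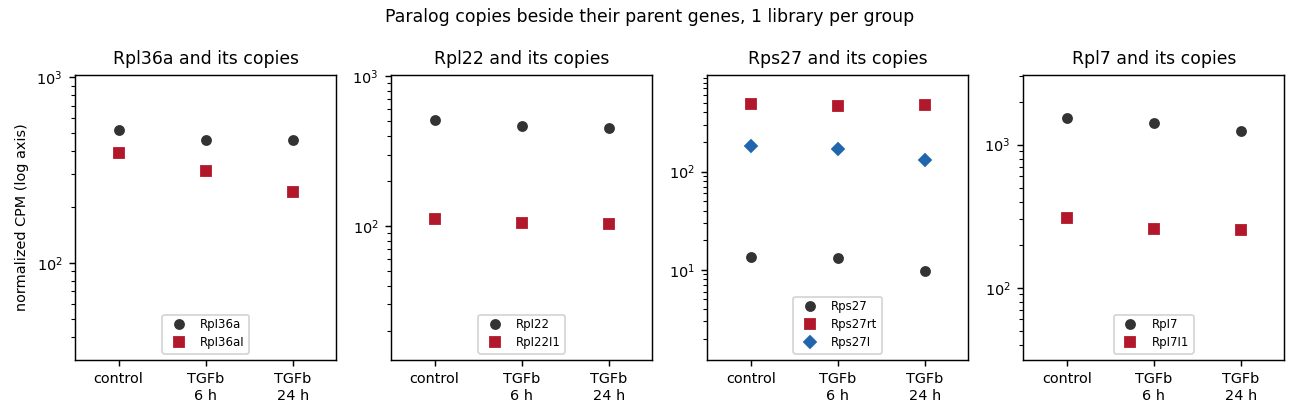
Normalized CPM (log axis) of measured paralog copies (coloured) and their parent genes (black) in the control, 6 h and 24 h libraries, 1 library per group. Rpl36al goes from 392 to 240 CPM while Rpl36a goes from 516 to 459, and Rps27 and Rps27rt have identical coding sequences, so the split between them is uncertain.

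The position of the whole set against zero depends on how libraries are scaled. The members' median log2 ratio at 24 h was -0.31 with DESeq2 size factors, -0.26 with upper quartile scaling, -0.13 with total counts and 0.0005 with TPM. Against TMM, the median of all genes shifted by 0.16 with total counts and 0.26 with TPM at 24 h, and by 0.08 and 0.16 at 6 h. TPM also depends on transcript length and does not move every gene by the same amount. A scaling of counts adds the same constant to every log2 ratio, so the distance of the members' median from that of all genes, -0.19 at 6 h and -0.27 at 24 h, is the same under each of them. With TPM that distance was -0.19 and -0.25. Below the median gene lay all 82 members in both comparisons in counts, and 81 in TPM.

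**Figure D3:**
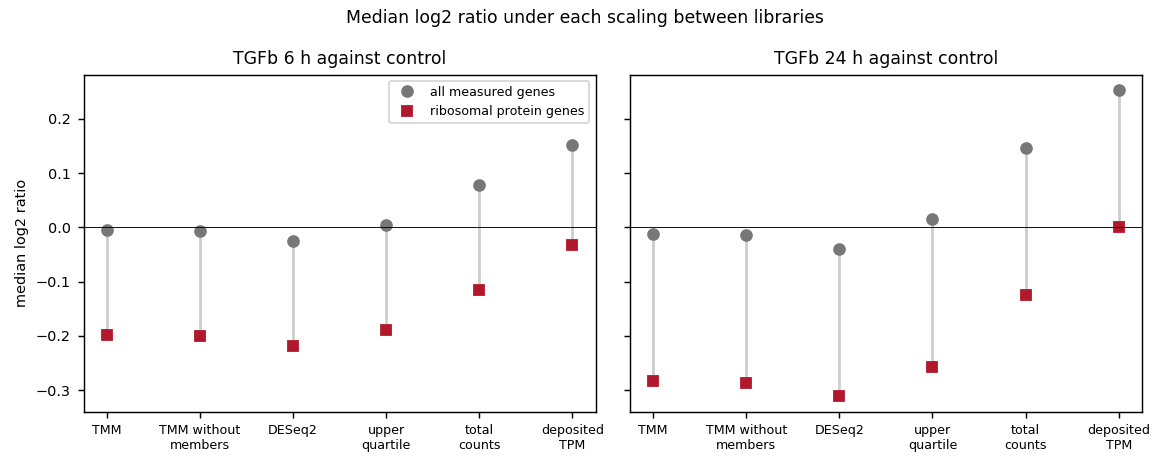
Median log2 ratio of the 82 ribosomal protein genes (red squares) and of all 10754 measured genes (grey circles) at 6 h and 24 h against control under 6 ways of making libraries comparable. Both medians shift together, which a scaling of counts does by construction, and with TPM the members' median also lies below that of all genes.

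Short transcripts as a class had low ratios in these libraries. Of the measured members 62 are under 1000 bases long, and their median of 693.5 bases compares with 2847 bases over all measured genes. The 675 other measured genes under 1000 bases had a median log2 ratio of -0.21 at 6 h and -0.39 at 24 h, beside -0.20 and -0.28 for the members. After a smooth trend of the log2 ratio on transcript length was removed over all measured genes, the members' median was -0.01 at 6 h with 43 of 82 below 0, and 0.04 at 24 h with 29 of 82 below 0. The lower level of the members was thus about that of other short transcripts at 6 h, and less low at 24 h. RSEM took 170, 173 and 178 bases off each length for the fragment size in the 3 libraries. That value moved with the groups, and its part in the length trend was not tested.

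**Figure D4:**
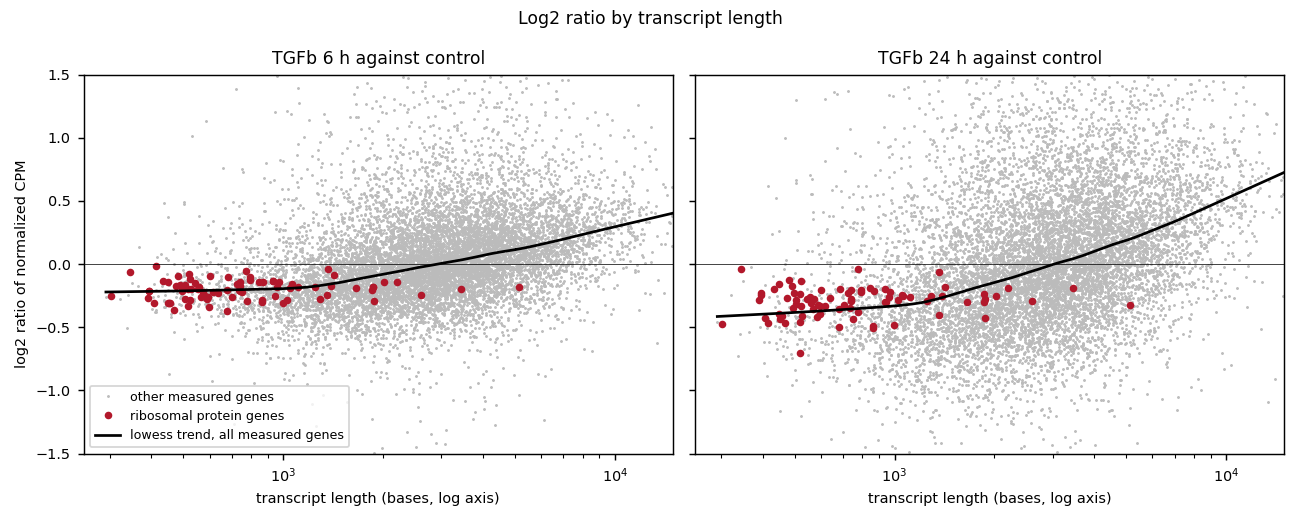
Log2 ratio of normalized CPM at 6 h and 24 h against control by transcript length (bases, log axis) for ribosomal protein genes (red) and other measured genes (grey), with a lowess trend over all measured genes (black). The axes leave out some other genes. The red points follow the short end of the trend at 6 h and lie mostly above it at 24 h, where 29 of 82 fall below.

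The middle 50% of the members' log2 ratios at 24 h spanned 0.13, against 0.45 for 253 other genes at 500 CPM or more in control and 0.54 for the 675 other short ones. Of the related lists, the 9 chaperones of ribosomal proteins spanned 0.13 and the 80 nuclear genes of the respiratory chain 0.23. By standard deviation both lists were wider than the members at 24 h, with 0.22 for each against 0.11. Of those 253 abundant genes, 77 were at least 1.5-fold lower at 24 h, where 11.8% of all measured genes were, and their median log2 ratio was -0.43. Only 16 other genes were both short and abundant, with a median of -0.44 and 5 of them 1.5-fold lower at 24 h.

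Within the set, members with more mRNA per length in control tended to have lower ratios at 6 h (Spearman's rho -0.48 over 82 members, and -0.50 over all measured genes), and less so at 24 h (-0.26, and -0.55 over all). Each point shares the same libraries, and the control level enters both axes. Transcript length had rho 0.13 and 0.15 among members.

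Fau and Rack1, ribosomal proteins whose names fall outside the rule, had ratios within the range of the members. Fau, the precursor of small subunit protein eS30, had 938, 772 and 771 CPM, and Rack1, a scaffold on the small subunit, had 2098, 1846 and 1715 CPM. The log2 ratio was -0.28 at both times for Fau, and -0.18 at 6 h and -0.29 at 24 h for Rack1.

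For the 15 mRNAs of other proteins known to carry a TOP motif, the median log2 ratio was -0.14 (6 h) and -0.26 (24 h). Of these, 15 and 13 were below 1, against 50.7% and 51% of all measured genes. With the length trend removed the medians of this list were -0.04 and -0.06. Eef1a1, which brings aminoacyl-tRNA to the ribosome, had 12076, 11743 and 11752 CPM. Pabpc1, the poly(A)-binding protein, had 2752, 2706 and 2762 CPM and Eif4b 1918, 1858 and 1925 CPM, so neither was lower at 24 h. Eef1d, an exchange factor for Eef1a1, had 498, 375 and 276 CPM and was the only one at least 1.5-fold lower at 24 h (11.8% of all measured genes).

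Genes that build ribosomes had lower ratios than genes that encode their proteins. Of 25 ribosome biogenesis factors all were below 1 in both comparisons, against 50.7% (6 h) and 51% (24 h) of all measured genes. The median was -0.45 (6 h) and -0.89 (24 h), and 4 and then 23 were at least 1.5-fold lower, against 2.14% and 11.8% of all measured genes. Nhp2, a core protein of H/ACA particles, had 368, 242 and 155 CPM. Polr1a, the large subunit of RNA polymerase I, had 246, 218 and 206 CPM, the highest ratio of the list at 24 h. With the length trend removed the medians were -0.39 and -0.81, and all 25 stayed below 0. Chaperones that bring single ribosomal proteins to the nucleolus had medians of -0.36 and -0.67, and of -0.29 and -0.37 with the length trend removed. All 9 were below 1 at both times (50.7% and 51% of all measured genes), and 6 were 1.5-fold lower at 24 h (11.8%). Among them Grwd1, a chaperone of Rpl3, had 197, 126 and 95.1 CPM, and Ltv1, which acts on the small subunit, 87.2, 66.4 and 48.6 CPM.

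Mitochondrial ribosomal proteins, which serve a separate ribosome, had lower ratios than the cytoplasmic ones. All 78 were below 1 at 6 h and 24 h, against 50.7% and 51% of all measured genes, with medians of -0.30 and -0.60. At 24 h 41 of them were at least 1.5-fold lower, where 1 of 82 cytoplasmic ones and 11.8% of all measured genes were. With the length trend removed their medians were -0.15 and -0.33. Mrpl12, a stalk protein of the mitochondrial ribosome, had 305, 194 and 139 CPM. Of 62 measured translation factors, 2 at 6 h (2.14% of all measured genes) and 21 at 24 h (11.8% of all) were at least 1.5-fold lower. Their medians were -0.24 and -0.43, and -0.17 and -0.28 with the length trend removed. The only translation factor 1.5-fold higher, at either time (6.77% and 16.8% of all measured genes), was Eif2ak3, the kinase PERK, with 40.02, 88.8 and 83.4 CPM. The 80 measured nuclear genes of the respiratory chain had medians of -0.21 and -0.42, and 13 were 1.5-fold lower at 24 h, a share not far above the 11.8% of all measured genes. With the length trend removed the medians of these 80 genes were only -0.02 and -0.08.

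**Figure D5:**
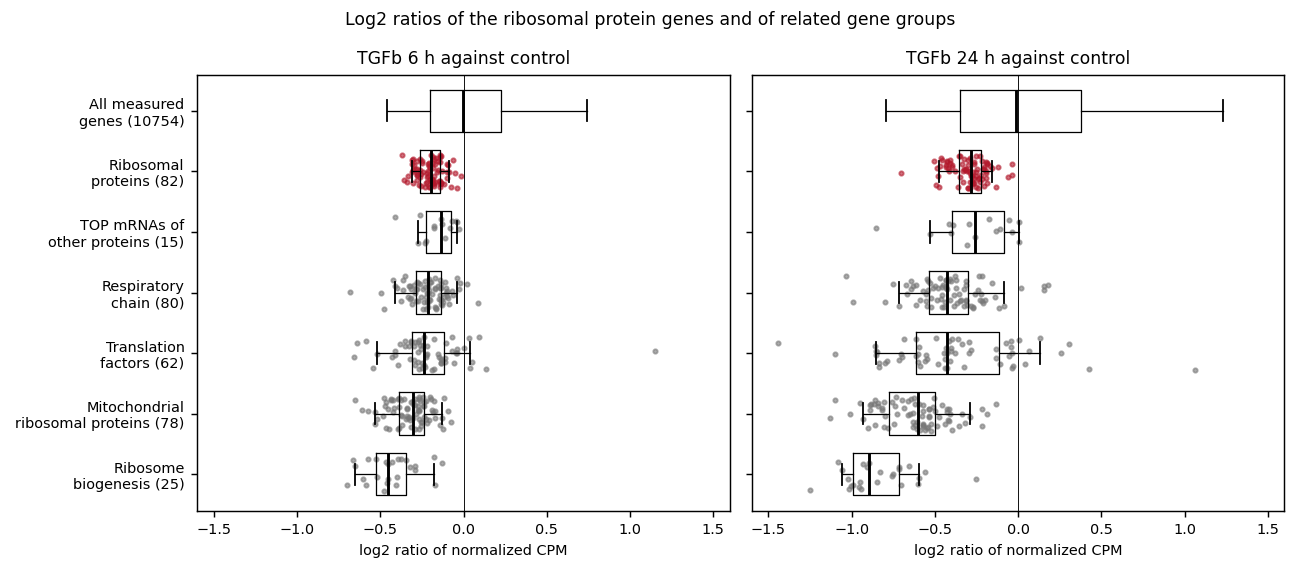
Log2 ratios of normalized CPM at 6 h (left) and 24 h (right) against control for ribosomal protein genes (red) and related lists (grey), with the number of measured genes in brackets. Points are genes, boxes the middle 50% with the median, and whiskers the 5th and 95th percentiles; 1 translation factor, Eif3j2 at 24 h (-3.62, reads shared with another gene), is outside the axis. The red box is narrow at 24 h around -0.28, while ribosome biogenesis factors centre on -0.89.

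Regulators of TOP mRNAs and of ribosomal protein synthesis included members past 1.5-fold in both directions. Of 24 measured genes of mTORC1 and TOP mRNA control, 1 was at least 1.5-fold lower and 4 higher at 6 h, and 3 were lower and 3 higher at 24 h, with a median log2 ratio of 0.04 in both. Of all measured genes, 2.14% were lower and 6.77% higher at 6 h, and 11.8% and 16.8% at 24 h. Mtor had 93.6, 96.8 and 102 CPM. Larp1 had 869, 653 and 543 CPM, and Eif4ebp1, a translation repressor that mTORC1 inactivates, 94.2, 62.8 and 34.7 CPM. Sesn3 and Ddit4, both inhibitors of mTORC1, had 15.3, 35.8 and 51.4 CPM and 30.9, 59.5 and 63.7 CPM. Inhibitors did not all have higher levels: Deptor, another one, had the lowest log2 ratio of the list at 6 h (-0.69). Eif4ebp1 was just under 1.5-fold lower at 6 h (log2 -0.584). Myc had 593, 335 and 283 CPM, 1.77-fold lower at 6 h and 2.10-fold lower at 24 h. Mxd4, which competes with Myc for its partner Max, had 17.7, 29.96 and 58.9 CPM.

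The starts of the genes were read from RefSeq (GRCm38.p6), which gave windows from 250 bases before to 50 after the listed start for 66 of the 86 members. The letters CTTTCC or CTTTTC, a form of the TCT initiator from which TOP mRNAs begin, lay on the gene's strand within 50 bases of the start in 42.3% of 78 member windows and in 8.11% of all 32851 windows. Stretches from 45 bases before to 15 after the start are shown for Rpl18 (lowest at 6 h), Rpl28, Rpl38 and Rps27, where these letters (capitals) lie at or next to the start, and for Rpl36al (lowest at 24 h), whose stretch lacks them. They cover chr7:45718026-45718085 (plus strand), chr7:4792920-4792979 (plus), chr11:114668535-114668594 (plus), chr3:90213634-90213693 (minus) and chr12:69184053-69184112 (minus).
Rpl18: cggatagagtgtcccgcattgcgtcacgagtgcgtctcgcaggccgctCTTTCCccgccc
Rpl28: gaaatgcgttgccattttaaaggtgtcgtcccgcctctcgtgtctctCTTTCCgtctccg
Rpl38: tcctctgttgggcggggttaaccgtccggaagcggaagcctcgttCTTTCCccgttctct
Rps27: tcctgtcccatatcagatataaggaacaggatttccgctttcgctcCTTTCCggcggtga
Rpl36al: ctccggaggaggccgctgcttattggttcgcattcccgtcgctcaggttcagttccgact

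Members with and without these letters near the start had close ratios. The medians were -0.19 with them (28 measured genes) and -0.20 without (34) at 6 h, and -0.28 and -0.30 at 24 h. Over the whole window, CCGGAAG, an Ets-type motif searched on both strands, was in 34.6% of member windows and 8.86% of all. The Myc-type E-box CACGTG was in 10.3% against 7.15%, and TATAAA, searched on the gene's strand, in 8.97% against 8.32%. A match describes the letters and is not evidence of binding.

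Ribosomal protein genes often carry small nucleolar RNAs (snoRNAs), which guide modification of ribosomal RNA, inside their introns. In GENCODE M21, 30 members held 58 of 1507 snoRNAs on their own strand. Rpl13a held 4 and Rpl4, a large subunit protein at the exit tunnel, held 5. The 30 hosts had a median log2 ratio of -0.20 at 6 h and -0.27 at 24 h, and the 52 other measured members had -0.20 and -0.29.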

How the data were processed

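Poly(A) mRNA of CH12 cells was sequenced for 50 cycles, per the labels' protocols, with 1 library per group. CASAVA 1.8.2, STAR, RSEM, bedtools and the build mm10 are named per the submitters' processing notes. Other versions, annotation and strand setting are not given in the sources. Per the file headers, each gene has an expected count, an RSEM estimate that shares out reads fitting several genes, plus TPM and FPKM. No use was made of the authors' FPKM. The authors' TPM values are set against transcript length less fragment length and add up to an equal total per library. The 4233 rows that are not protein-coding held 0 counts.

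Expected counts were rounded and scaled by TMM (edgeR 4.0.16, R 4.3.3), which gave factors of 0.946, 1.00 and 1.06 for control, 6 h and 24 h, and are given as normalized CPM. Measured genes had at least 1 CPM and 30 counts in 1 library or more (10754 genes). Of these, 1239 (11.5%), 9 members among them, held an expected count more than 0.005 from a whole number and so share reads. Ratios carry exact conditional 95% intervals of 2 counts (scipy 1.17.1), which cover counting error only, and the sources used name no molecular identifiers that would separate molecules from PCR copies. With 1 library per group no test was run. Genes were counted at 1.5-fold, beside the share of all measured genes. Ratios and intervals were tested on simulated counts with known folds and counting error only. That check says nothing about variation between libraries.

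The members, lists, alternatives and tests were chosen with earlier results of these data known. Named genes were the 6 members highest in control TPM, the 4 lowest and 4 highest in each comparison by log2 ratio of CPM + 1, stalk genes, Rpsa, Rpl5, Rpl11, Rps6, Rpl13a, Rpl32, paralog copies with their parents, and the extremes of each other list with Myc, Mtor, Larp1, Eif4ebp1 and Eef1a1. Some genes that the rule names are not reported here, and not all from the other lists are printed. Rpl4, Rpl28, Rpl38 and Rps15a were named after their values were seen. Alternatives were DESeq2 1.42.0 size factors, upper quartile, total counts, TMM without the members, the deposited TPM, removal of a lowess trend on transcript length (fraction 0.3), other minimum levels, folds of 1.25 and 2, and leaving out copies or members that share reads. Sequences and starts came from RefSeq (GRCm38.p6) and GENCODE M21, on the assembly of mm10.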

Additional observations from a re-analysis of the deposited data

How the results depend on the processing

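With 1 library per group and no test, these alternatives show how far values move, not whether they would repeat. The members' median log2 ratio at 6 h (-0.20), 24 h (-0.28) and 24 h against 6 h (-0.08) was -0.22, -0.31 and -0.091 with DESeq2 size factors, -0.19, -0.26 and -0.065 with upper quartile scaling, -0.12, -0.13 and -0.0072 with total counts, and -0.033, 0.00047 and 0.033 with the deposited TPM. At 6 h and 24 h it was -0.201 and -0.287 with TMM computed without the members, and -0.201 and -0.287 with members that share reads left out. At 24 h it was -0.281 with a minimum of 1 count, with a minimum of 100 CPM and with paralog copies left out. Removing the length trend gave -0.0065, 0.041 and 0.066, and fitting it without the members, an alternative chosen after seeing the data, gave -0.00579, 0.052 and 0.076. Members below 1 numbered 41 at 24 h and 22 from 6 h to 24 h with TPM, 46 from 6 h to 24 h with total counts, 43, 29 and 19 in the 3 comparisons with the length trend removed, and 43, 28 and 18 with it fitted without them. The count of 1 member (Rpl36al) at least 1.5-fold lower at 24 h was 0 with total counts, TPM, either length trend, copies left out or a 2-fold rule. The smallest of the folds tried gave 4, 29 and 3 lower. The share of all measured genes past that fold was not counted, so these counts cannot be read as particular to the members. With a minimum of 1 count, 1 member (Rpl39l) was 1.5-fold higher from 6 h to 24 h. The share of the library was 27.4%, 26.3% and 27.0% of TPM, and 9.15%, 8.36% and 8.27% of counts without members that share reads. With TPM the median of all genes moved by 0.16 at 6 h and 0.26 at 24 h, and most of the members' move was this common shift. The cause of the length trend was not tested. Of 156 other log2 ratios, the sign changed for 1 with DESeq2, 1 with TMM without the members, 3 with upper quartile, 29 with total counts, 62 with TPM and 68 with the length trend removed. No paired analysis was possible because each group has 1 library. Depth limits Rps27 and the 4 members not measured most, and the split of reads between Rps27 and Rps27rt is uncertain as well.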

Other observations

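Ribosomal protein mRNAs have left many retrotransposed copies in the mouse genome, and GENCODE M21 names 301 pseudogenes after the members. The deposited tables list 8 pseudogene rows named Rpl or Rps, each with 0 counts in each library, so reads that fit both a member and an unlisted copy could not be followed here.

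The order of the members by TPM hardly differed between libraries. Spearman's rho with control was 0.994 at 6 h and 0.987 at 24 h over the 82 measured members, which share the annotation and transcript lengths across libraries. The highest member had 117 times the TPM of the lowest in control, 86.3 times at 6 h and 111 times at 24 h. In each library the lowest was Rps27, whose coding reads cannot be separated from those of Rps27rt.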
